A study of Mus musculus with 8 samples.

Results

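The transcripts described here are those of 10 ATP-binding cassette (ABC) transporters that move lipids or drugs across membranes, measured by RNA sequencing in the livers of female mice. The genes were picked by symbol (Abca1, Abca2, Abca3, Abca6, Abca8a, Abca8b, Abcb1a, Abcc6, Abcg1 and Abcg2), with the bile canalicular and bile acid transporters set aside. All 10 were among the 14317 mouse genes of the deposited table, which lists 41 ABC genes, and all 10 had mean values above the minimum for testing. Each group held 4 mice, with 1 library per mouse. Con-Veh mice carried an empty silastic pellet and Con-DHT mice a 10 mm pellet filled with dihydrotestosterone (DHT), an androgen that is not converted to estrogen. Both groups ate a Western diet (WD) for 8.5 weeks. By the study's methods the females were 7 weeks old at implantation, received fresh pellets every 4 weeks, and came from a line with a floxed allele that the controls carried too, while the labels give the genotype of all libraries as WT. The question was how androgen excess changed the transcripts of these transporters in the liver of females on this diet.

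Abcg2, which encodes an efflux pump for drugs, urate and porphyrins, rose 1.99-fold in Con-DHT livers. Abcg1, whose product passes cholesterol to high density lipoprotein (HDL), and Abca8b, from a cluster of A-type transporters, fell to 0.712 and 0.760 of their Con-Veh levels. The other 7 transporters did not pass the test. The test was limma's on log2(value + 1), with p values adjusted over all genes tested (Benjamini-Hochberg). At a limit of 0.05 on the adjusted p, 3 of the 10 genes were called (1 higher, 2 lower), against 7.21% of the 14312 genes tested, 4.60% higher and 2.61% lower. The median log2 fold change was -0.03 over the 10 genes and -0.0081 over all genes tested. With libraries scaled by their synthetic spike-in transcripts these medians were 0.17 and 0.19. Both edgeR and DESeq2 also called 3 of the 10, where they called 7.15% and 11.0% of all genes. With spike-in scaling 1 was called (Abcg2, while the calls of Abcg1 and Abca8b were lost), and 2 were called with the replicate number as a block and with libraries scaled to their total without the major urinary protein (Mup) genes, where the call of Abcg1 was lost. Of the 14312 genes tested, 1032 were called in the main test, 637 with spike-in scaling, 700 with the block and 1290 with the Mup-free scaling.

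ABC transporters use the energy of ATP to push substrates through or out of a membrane. Abca1 loads cholesterol and phospholipid onto lipid-poor apolipoprotein A-I, the first step in making HDL, and Abcg1 adds cholesterol to formed HDL. Both are classical targets of the liver X receptors (LXRs), nuclear receptors that sense oxysterols. Abca2 and Abca3 act in lysosome-related organelles, and Abca3 is best known for loading surfactant phospholipid into the lamellar bodies of the lung. Abca6, Abca8a and Abca8b belong to a group of related A-type genes that lie side by side, with lipid substrates that are less well defined. Abcb1a encodes a mouse P-glycoprotein, Abcg2 the breast cancer resistance protein, and Abcc6 a basolateral hepatocyte protein needed for ATP release, from which the mineralization inhibitor pyrophosphate is made.

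The livers were checked against markers of their cell types. Of 10 hepatocyte markers, 9 were listed, and their summed deposited value was 1403790 ± 302228 in Con-Veh and 1095170 ± 65308 in Con-DHT (SD, n = 4), with overlapping groups. The mean of Con-DHT was 0.780 of that of Con-Veh. Albumin (Alb) was the most abundant, at 928458 ± 301650 in Con-Veh and 640916 ± 62135 in Con-DHT (adjusted p = 0.52 by limma). By limma and by edgeR none of the 9 hepatocyte genes was called, with 1 and 3 at an unadjusted p of at most 0.05, while DESeq2 called 2. The deposited values are read counts divided by a size factor for each library. Between 13123962 and 17815944 reads on mouse genes lay behind each library, and each of the 10 transporters had between 77 and 5028 reads in every library.

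Abcg2 has 3 annotated starts in the RefSeq promoter table used here (GRCm38.p6, plus strand of chromosome 6), against 1 for each of the 6 other transporters with an entry, and the bases from 250 to 51 before each start are printed because this gene showed the largest change of the 10. Capitals mark the hexamers AGGTCA (reverse complement TGACCT), which many nuclear receptors recognise, and GGGCGG (reverse complement CCGCCC), the core of a GC box. The windows are chr6:58584283-58584482, chr6:58596422-58596621 and chr6:58640296-58640495.
Abcg2 start 1: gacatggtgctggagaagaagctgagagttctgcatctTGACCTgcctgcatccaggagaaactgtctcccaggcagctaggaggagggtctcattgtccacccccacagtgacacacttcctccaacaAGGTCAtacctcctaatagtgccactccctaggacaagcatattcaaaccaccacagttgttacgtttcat
Abcg2 start 2: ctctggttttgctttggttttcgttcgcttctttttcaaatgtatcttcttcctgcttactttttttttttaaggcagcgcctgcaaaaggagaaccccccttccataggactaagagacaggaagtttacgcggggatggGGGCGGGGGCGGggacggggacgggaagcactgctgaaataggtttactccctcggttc
Abcg2 start 3: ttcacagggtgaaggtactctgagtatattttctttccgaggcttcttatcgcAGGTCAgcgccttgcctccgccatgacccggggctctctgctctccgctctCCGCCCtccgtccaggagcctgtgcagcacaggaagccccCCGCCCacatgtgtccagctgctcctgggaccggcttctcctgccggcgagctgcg
The first window holds AGGTCA in each orientation and no GGGCGG. The second holds GGGCGG in 2 adjoining copies and no AGGTCA, and the third holds 1 AGGTCA and 2 copies of CCGCCC. Over all 32851 promoter windows of 200 bases in the table, 11.4% hold AGGTCA and 24.6% hold GGGCGG on either strand. The deposited counts are per gene, so that the start from which an Abcg2 transcript came cannot be told apart.

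The same search covered the 9 windows of the 7 transporters with an entry (Abca1, Abca2, Abca3, Abca8a, Abca8b, Abcb1a and Abcg2). Abca1 had 2 copies of GGGCGG, and the windows of Abca2, Abca3, Abca8a, Abca8b and Abcb1a had neither hexamer. The spaced motif TTCNNNGAA, which STAT factors recognise and 5.76% of all windows hold, was in none of the 9. A direct repeat of AGGTCA spaced by 4 bases, of the LXR type (0.0122% of all windows), was also in none of them. These searches say only that the letters are not in these windows.

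Abcg2 (ENSMUSG00000029802, chr6:58584523-58695676 of GRCm38, plus strand) was the transporter with the largest change. The deposited values were 346, 368, 381 and 379 in Con-Veh replicates 1 to 4, and 838, 727, 576 and 822 in Con-DHT replicates 1 to 4. Every Con-DHT library lay well above every Con-Veh library, and the Con-Veh values were close together while Con-DHT replicate 3 was the lowest of its group. The means were 368 ± 15.9 in Con-Veh and 741 ± 120.4 in Con-DHT (SD, n = 4), which is 0.99 on the log2 scale (SE 0.12; limma, adjusted p = 0.0010). The 95% interval of the fold ran from 1.66 to 2.38. Abcg2 was called whichever of the 8 libraries was left out, with log2 fold changes between 0.93 and 1.11, and under each alternative of scaling and test, with adjusted p values up to 0.0075.

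Abcb1a (ENSMUSG00000040584, chr5:8660077-8748575, plus strand), the other drug pump of the 10, did not pass the test. Its values were 84.6, 166, 158 and 90.5 in Con-Veh and 82.4, 120.0, 101 and 85.9 in Con-DHT. In Con-Veh the values fell into a high pair (replicates 2 and 3) and a low pair (replicates 1 and 4), and all 4 Con-DHT values lay below the high pair, 3 of them above the lowest Con-Veh value. The log2 fold change was -0.30 (SE 0.24; limma, adjusted p = 0.49), with a 95% interval of the fold from 0.561 to 1.17. Its paralog Abcb1b, the second mouse P-glycoprotein gene, was at 17.0 ± 7.32 in Con-Veh and 13.8 ± 5.41 in Con-DHT (SD, n = 4). The coding sequences of the pair were 87.7% identical over their alignment, and they share a run of 338 identical bases, longer than the 150-base reads. A pair of reads that lies wholly within that run matches both genes, and since the authors counted uniquely aligned reads, such pairs would be left out of the values of Abcb1a and of Abcb1b.

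**Figure D1:**
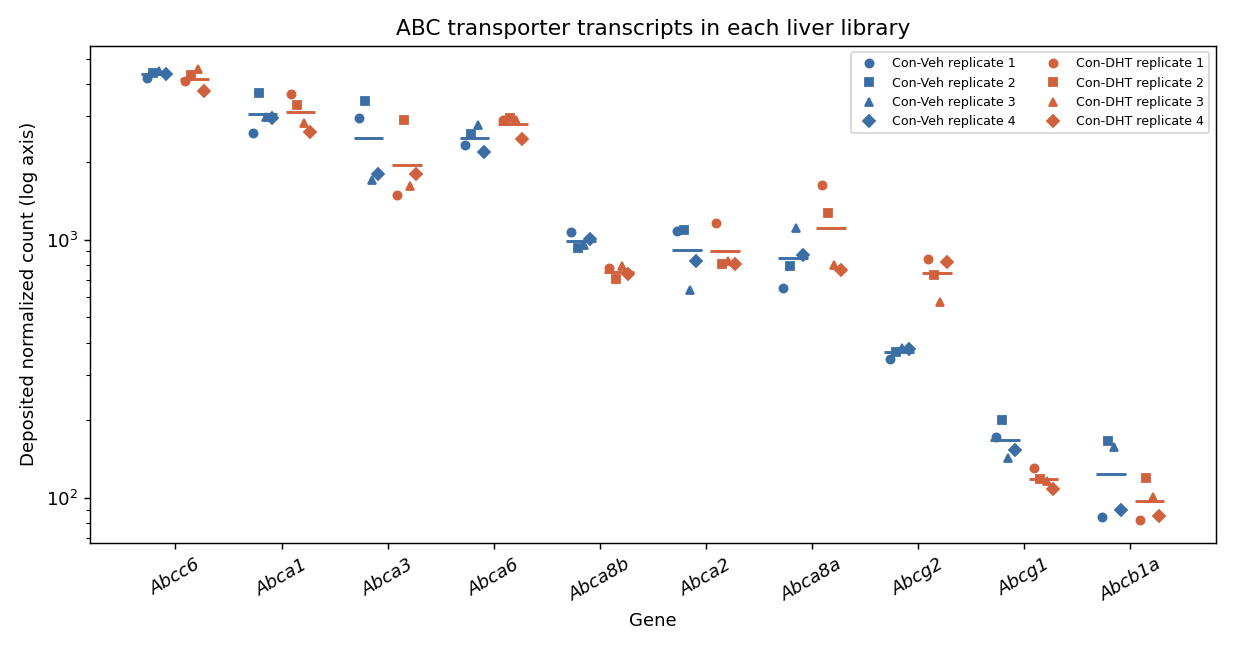
Deposited normalized counts (log axis) of the 10 transporters in each library, ordered by Con-Veh mean, with Con-Veh in blue, Con-DHT in orange, a marker shape for each replicate number and a bar at each group's mean. The groups do not overlap for Abcg2 (346 to 381 against 576 to 838), Abca8b and Abcg1, and do overlap for the other 7 genes.

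Of the cholesterol exporters, Abcg1 was called and Abca1 was not, and whether their responses differed was not tested. Abca1 (ENSMUSG00000015243, chr4:53030787-53159895, minus strand) had values of 2577, 3691, 2982 and 2958 in Con-Veh and of 3659, 3324, 2832 and 2608 in Con-DHT. The highest and the lowest Abca1 values of all 8 libraries were both in Con-Veh, and the groups overlapped completely. The log2 fold change was 0.02 (SE 0.13; limma, adjusted p = 0.94), and the 95% interval of the fold ran from 0.832 to 1.24.

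Abcg1 (ENSMUSG00000024030, chr17:31057675-31117988, plus strand) had values of 173, 202, 144 and 154 in Con-Veh and of 130.5, 119, 116 and 109 in Con-DHT. All 4 Con-DHT values were below all 4 Con-Veh values, with a narrow gap between Con-Veh replicate 3 and Con-DHT replicate 1. The means were 168 ± 25.4 and 119 ± 9.03 (SD, n = 4), which is -0.49 on the log2 scale (SE 0.13; limma, adjusted p = 0.046). The call was a marginal one. Leaving out a library ended it in 7 of 8 cases, with adjusted p values between 0.063 and 0.12, and it was kept only without Con-Veh replicate 3 (adjusted p = 0.039). It was also lost when the variance was modelled without its trend on intensity (0.056), with the replicate number as a block (0.066), with the Mup-free scaling (0.085) and with spike-in scaling (0.91), and was kept by edgeR (0.048) and DESeq2 (0.019).

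Markers of macrophages moved the same way as Abcg1, which is well expressed in macrophages. All 12 macrophage markers were listed, none of them at 0, and 8 were called, all lower in Con-DHT by limma (Lyz2, Cd5l, C1qa, Vsig4, C1qb, Cd68, C1qc and Clec4f). Over all genes tested, limma called 7.21%, 2.61% lower. The median log2 fold change of the 12 markers was -0.54. It was -0.34 with spike-in scaling (0.19 over all genes), where limma called none of the 12 (1 reached 0.05 before adjustment). With the Mup-free scaling and with the replicate block, limma called 6 of the 12. C1qc lost its call in both (adjusted p = 0.061 and 0.053), as did Clec4f. The summed macrophage value was 11015, 11646, 9824 and 10823 in Con-Veh and 8634, 6502, 7404 and 6983 in Con-DHT. The groups of this sum did not overlap, and the mean of Con-DHT was 0.682 of that of Con-Veh, beside 0.712 for Abcg1. The most abundant gene of the list was Cd5l, a macrophage-secreted LXR target, at 2767 ± 368 and 1529 ± 280 (SD, n = 4; log2 fold change -0.86, SE 0.13; limma, adjusted p = 0.0045). The Kupffer cell lectin Clec4f was at 2315 ± 233 in Con-Veh and 1751 ± 206 in Con-DHT (adjusted p = 0.039), but its groups overlapped, and its call held in 2 of 8 cases when a library was left out and was lost without the trend (0.085), with the Mup-free scaling (0.088) and with the replicate block (0.079). In these bulk samples, fewer cells of a type and less RNA per cell cannot be told apart, and the part of macrophages in the change of Abcg1 was not tested.

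Markers of other cells of the liver were read in the same way, beside the 7.21% of all genes that limma called. The endothelial sum was 6720 ± 417 in Con-Veh and 5408 ± 344 in Con-DHT (SD, n = 4) without overlap, and 2 of the 12 endothelial genes were called, the scavenger receptor gene Stab2 (log2 fold change -0.55, adjusted p = 0.018) and Lyve1 (-1.26, adjusted p = 0.039), both lower. The list's median was -0.27 (-0.070 with spike-in scaling, where the call of Stab2 was lost, adjusted p = 0.88). The groups of Lyve1 overlapped, and its call was lost by edgeR (0.052), without the trend (0.076) and in 6 of 8 cases when a library was left out, and that of Stab2 without Con-Veh replicate 4 (0.056) or Con-DHT replicate 1 (0.052). The stellate and fibroblast sum was 2229, 1845, 6223 and 3423 in Con-Veh and between 2557 and 3126 in Con-DHT, so that Con-Veh replicate 3 stood high, with Dcn the most abundant gene and none of the 12 genes called by limma, edgeR or DESeq2 (1 at an unadjusted p of at most 0.05 with each), while limma with spike-in scaling called 1, Col1a1, lower (adjusted p = 0.0023). None of the 6 cholangiocyte genes listed was called by any of the 3 tools or had an unadjusted p of at most 0.05, and their most abundant gene was Spp1 (792 ± 61.3 and 801 ± 125). Of the lymphocyte markers 2 of 10 were listed, with Cd4 higher in Con-DHT (11.4 ± 1.77 and 30.2 ± 4.23, adjusted p = 0.0066) and Cd79b at 18.3 ± 4.88 and 9.98 ± 5.26 (log2 fold change -0.92, adjusted p = 0.19), and with overlapping groups for their sum. Of the neutrophil markers 2 of 8 were listed, with the sum at 89.7 ± 28.6 and 43.3 ± 8.13 without overlap and neither gene called by limma or edgeR (1 at an unadjusted p of at most 0.05 with each; DESeq2 and limma with spike-in scaling called 1, lower). The erythroid sum, led by Hba-a1, was 8554 ± 3377 and 5789 ± 1978 (SD, n = 4) with none of 6 genes called by limma or edgeR (3 and 4 at an unadjusted p of at most 0.05; DESeq2 and limma with spike-in scaling called 1, higher). In the smooth muscle and pericyte list, led by Rgs5, Cspg4 rose from 10.9 ± 8.91 to 46.7 ± 4.80 (adjusted p = 0.024), a call lost in 5 of 8 cases when a library was left out (adjusted p up to 0.064). The other 4 genes of that list were not called, 3 of the 5 had log2 fold changes below 0 (median -0.068), and the groups of the sum overlapped, with the mean of Con-DHT at 0.986 of that of Con-Veh. The part of these cells in the results of the 10 transporters was not tested.

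**Figure D2:**
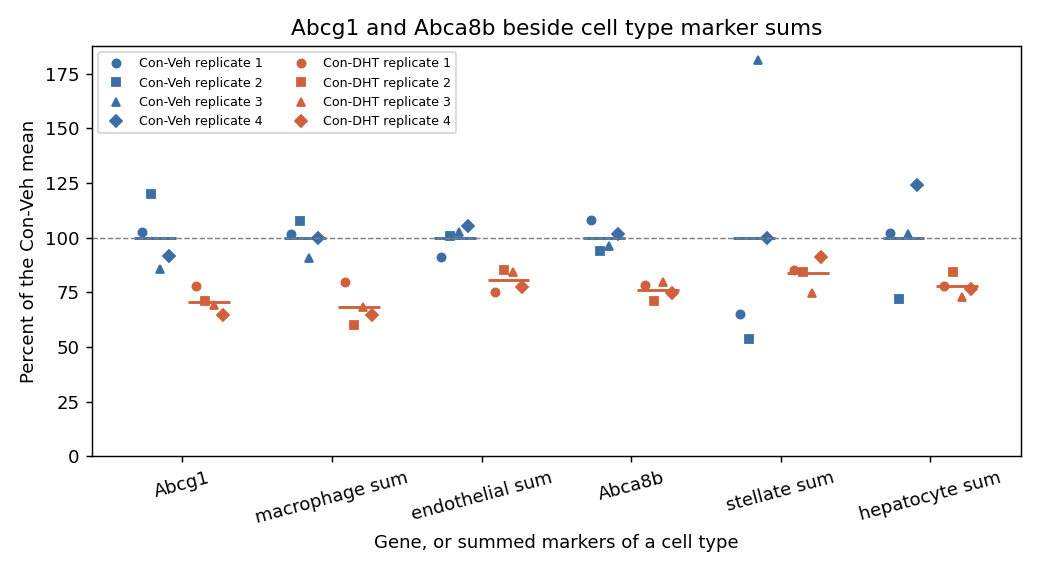
Values of Abcg1, Abca8b and the summed markers of 4 cell types in each library, in percent of the Con-Veh mean (linear axis from 0; blue Con-Veh, orange Con-DHT, bars at group means). Abcg1 lay between 64.7% and 77.7% in Con-DHT and the macrophage sum between 60.1% and 79.7%, while the stellate and hepatocyte sums overlapped between the groups. The hepatocyte sum lay between 73.1% and 84.2% in Con-DHT and overlapped only through Con-Veh replicate 2 (71.8%).

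The A-type genes include a cluster on chromosome 11, in which Abca8b, Abca8a, Abca9, Abca6 and Abca5 lie in a row on the minus strand within 406 kb (chr11:109932190-110337716 of GRCm38). Abca8b was the one called gene of these 5. Abca8b (ENSMUSG00000020620, chr11:109932190-109995845) had values of 1069.6, 926, 951 and 1005 in Con-Veh and of 774, 702, 789 and 736 in Con-DHT. The values of both groups were tight and did not overlap. The means were 988 ± 63.8 and 750.1 ± 39.3 (SD, n = 4), which is -0.40 on the log2 scale (SE 0.07; limma, adjusted p = 0.011). The call held whichever of the 8 libraries was left out, with adjusted p values from 0.018 to 0.035, and was lost with spike-in scaling (log2 fold change -0.20, adjusted p = 0.93).

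Abca8a (ENSMUSG00000041828, chr11:110025634-110095978), the neighbour and closest paralog of Abca8b, had values of 649, 788, 1104 and 868 in Con-Veh and of 1625, 1266, 796 and 765 in Con-DHT. Con-DHT replicates 1 and 2 stood above all Con-Veh libraries, and Con-DHT replicates 3 and 4 lay within the Con-Veh range. The means were 852 ± 191 and 1113 ± 411 (SD, n = 4), and the log2 fold change of 0.34 (SE 0.24; limma, adjusted p = 0.45) did not pass the test. Its 95% interval in fold ran from 0.870 to 1.84.

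The coding sequences of Abca8a and Abca8b are both 4860 bases long and were 73.6% identical over their alignment, with 97 bases in the longest identical run, where the reads were 150 bases long. The most similar ungapped 150 bases of their spliced coding sequences are printed to show how closely a read can match both genes. The stretch covers the end of exon 14, the whole of exon 15 (chr11:110069375-110069513 in Abca8a and chr11:109966681-109966819 in Abca8b, minus strand, GRCm38 with GENCODE M21) and the start of exon 16, and codes for part of an ATP-binding domain. The capital marks the 1 base that differs.
Abca8a: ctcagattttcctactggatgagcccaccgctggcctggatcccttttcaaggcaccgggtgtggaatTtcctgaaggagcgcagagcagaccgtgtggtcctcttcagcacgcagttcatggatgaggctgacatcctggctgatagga
Abca8b: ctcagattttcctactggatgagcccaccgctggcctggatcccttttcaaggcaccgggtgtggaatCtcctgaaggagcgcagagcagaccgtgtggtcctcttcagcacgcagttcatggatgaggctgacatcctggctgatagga
A 150-base read that covers this stretch differs between the genes at 1 base. The libraries were sequenced from both ends, so the other read of the pair can also tell the genes apart.

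The ratio of the neighbours was compared between the groups. The log2 ratio of Abca8a over Abca8b was -0.72, -0.23, 0.21 and -0.21 in Con-Veh and 1.07, 0.85, 0.01 and 0.06 in Con-DHT. The ratio was highest in Con-DHT replicates 1 and 2, but Con-Veh replicate 3 lay above Con-DHT replicates 3 and 4. The group means were -0.24 ± 0.38 and 0.50 ± 0.54 (SD, n = 4), a difference of 0.73 that did not pass an exact two-sided permutation test (p = 0.086, where 0.029 is the smallest that 4 against 4 libraries allow). Without a single library the difference lay between 0.54 and 0.90.

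**Figure D3:**
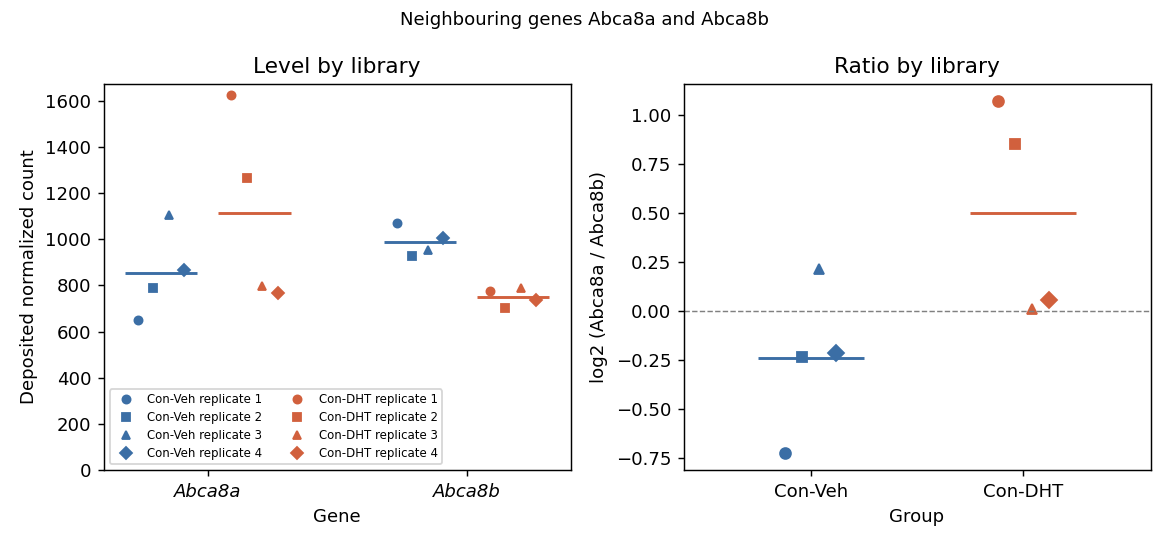
Deposited normalized counts of Abca8a and Abca8b in each library (left, axis from 0) and the log2 ratio of Abca8a over Abca8b (right), with Con-Veh in blue, Con-DHT in orange, a shape per replicate number and bars at group means. Abca8b is lower in all 4 Con-DHT libraries, while Abca8a is split between 2 high and 2 low Con-DHT libraries.

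Abca6 (ENSMUSG00000044749, chr11:110176820-110251776) had values of 2324, 2568, 2762 and 2177 in Con-Veh and of 2895, 2943, 2901 and 2455 in Con-DHT. The values of 3 Con-DHT libraries were above all of Con-Veh, and that of Con-DHT replicate 4 fell inside the Con-Veh range. The log2 fold change was 0.19 (SE 0.09; limma, adjusted p = 0.26), with a 95% interval in fold from 0.987 to 1.32. The remaining genes of the cluster were not called. Abca9 was at 69.4 ± 10.9 and 67.7 ± 9.31 (log2 fold change -0.034, turning to 0.063 and 0.16 with the Mup-free and spike-in scalings), and Abca5 at 134 ± 17.4 and 144 ± 4.10 (SD, n = 4; adjusted p = 0.61).

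Outside this cluster, the organelle transporters Abca2 and Abca3 did not pass the test and were among the more variable genes. Abca2 (ENSMUSG00000026944, chr2:25428703-25448540, plus strand) had values of 1081, 1086, 639 and 829 in Con-Veh and of 1163, 801, 829 and 808 in Con-DHT. Con-DHT replicate 1 stood alone above the other 3 Con-DHT libraries, which lay close together within the Con-Veh range. The log2 fold change was 0.00 (SE 0.18; limma, adjusted p = 1.00), with an interval in fold from 0.758 to 1.32.

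Abca3 (ENSMUSG00000024130, chr17:24351950-24410201, plus strand) had values of 2944, 3433, 1699 and 1789 in Con-Veh and of 1488, 2897, 1612 and 1784 in Con-DHT. The high libraries were Con-Veh replicates 1 and 2 and Con-DHT replicate 2, and the others of both groups lay together below them. The log2 fold change was -0.33 (SE 0.26; limma, adjusted p = 0.50), with an interval in fold from 0.533 to 1.19. Abca3 shares 914 exon bases with the opposite-strand transcript D330041H03Rik, Abcb1a shares 553 with Gm42686 and Abca8b shares 241 with the antisense gene Gm11697. Whether counting used the strand is not given in the sources used here, and without strand the reads of such partners cannot be told apart.

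Abcc6 (ENSMUSG00000030834, chr7:45967555-46030302, minus strand), the transporter of the pyrophosphate pathway, had the highest level per length of the 10 in both groups. Its values were 4192, 4411, 4485 and 4376 in Con-Veh and 4084, 4304, 4578 and 3732 in Con-DHT. The groups overlapped, and Con-DHT held both the highest and the lowest value. The log2 fold change was -0.07 (SE 0.08; limma, adjusted p = 0.65), and turned to 0.030 and 0.13 with the Mup-free and spike-in scalings. The 95% interval in fold was narrow, from 0.847 to 1.07.

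Levels of the 10 genes were set side by side as deposited value per kb of exon, as a description. In Con-Veh the order began with Abcc6 (763 ± 21.8 per kb), Abca6 (455 ± 48.0), Abca1 (294 ± 44.8) and Abca3 (263 ± 91.5), followed by Abca8a (136 ± 30.4), Abca8b (133 ± 8.59), Abca2 (109 ± 25.9), Abcg2 (45.2 ± 1.95), Abcg1 (23.0 ± 3.48) and Abcb1a (22.8 ± 7.86, each SD, n = 4). The libraries of neighbours in this order overlapped for Abca1 and Abca3, for Abca8a, Abca8b and Abca2 in turn, and for Abcg1 and Abcb1a, so that these were not separated beyond their spread. In Con-DHT Abcg2 reached 90.8 ± 14.8 per kb, overlapped Abca8b (101 ± 5.30) and stood clear of Abcb1a (17.8 ± 3.13) and Abcg1 (16.3 ± 1.24) below it. Within Con-Veh the spread was smallest for Abcc6, with an SD of 2.86% of the mean, Abcg2 (4.32%) and Abca8b (6.46%), and largest for Abca3 (34.8%) and Abcb1a (34.5%). In Con-DHT it was largest for Abca8a (36.9%).

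Con-DHT and Con-Veh libraries were fully separated for 3 of the 10 transporters, the same 3 that were called, against 15.1% of all genes tested, 8.49% higher and 6.62% lower in Con-DHT. For each of these 3 genes the exact two-sided permutation test on log2 values gave p = 0.029, the smallest possible with 70 arrangements of 8 libraries. Full separation always gives this p, so it restates the separation and adds no support.

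The other 31 ABC genes of the table were all tested, and 3 of them were called, 2 higher and 1 lower. That is 9.68%, against 7.21% of all genes tested. Their median log2 fold change was 0.03 (0.23 with spike-in scaling, against 0.19 over all genes). Of the 3 called genes, 2 belong to the D group, in which Abcd2 and Abcd3 import fatty acyl-CoA into peroxisomes. Abcd2 fell (Con-Veh 800.1 ± 187, Con-DHT 373 ± 67.3, SD, n = 4; log2 fold change -1.09, SE 0.18; limma, adjusted p = 0.0057), a call that held whichever library was left out and was lost with spike-in scaling (log2 fold change -0.89, adjusted p = 0.061). Abcd3 rose from 6797 ± 526 to 9164 ± 769 (log2 fold change 0.43, SE 0.09, adjusted p = 0.020), a call that was lost without Con-DHT replicate 1 or without Con-DHT replicate 2 (adjusted p = 0.058 each), with the replicate block (0.068) and with spike-in scaling (0.41). The groups of Abcd2 and of Abcd3 did not overlap.

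Abcc1, a multidrug resistance protein that exports glutathione conjugates, was the remaining called gene, at 35.5 ± 10.1 in Con-Veh and 63.0 ± 6.82 in Con-DHT (log2 fold change 0.84, SE 0.21, adjusted p = 0.036). Leaving out a library ended its call in 7 of 8 cases, all but Con-Veh replicate 3, and it was also lost with the replicate block (adjusted p = 0.064) and with spike-in scaling (0.083). Among the canalicular genes, the bile salt export pump gene Abcb11 was at 7864 ± 661 and 6087 ± 666 (log2 fold change -0.37, adjusted p = 0.051), without overlap of the groups. It was called by DESeq2 (adjusted p = 0.0083), with upper-quartile scaling (0.0496) and without Con-DHT replicate 3 (0.045). The phospholipid floppase Abcb4 (7639 ± 526 and 8760.0 ± 871) and the conjugate exporter Abcc2 (10106 ± 605 and 10633 ± 1251) did not pass the test. Nor did the sterol exporter pair Abcg5 (3781 ± 399 and 2941 ± 768, adjusted p = 0.21) and Abcg8 (3129 ± 482 and 2845 ± 914, adjusted p = 0.67).

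The basolateral exporters Abcc3 and Abcc4 had log2 fold changes of -0.26 (adjusted p = 0.41) and -0.46 (adjusted p = 0.16). Abca7 was at 221 ± 11.9 and 188 ± 27.1 (adjusted p = 0.23). Abcg3, a rodent relative of Abcg2, was at 55.2 ± 8.26 in Con-Veh and 37.8 ± 15.8 in Con-DHT (log2 fold change -0.61, adjusted p = 0.21). Of the 5 G-type genes in the table, Abcg1 and Abcg2 were called by limma and Abcg3, Abcg5 and Abcg8 were not.

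**Figure D4:**
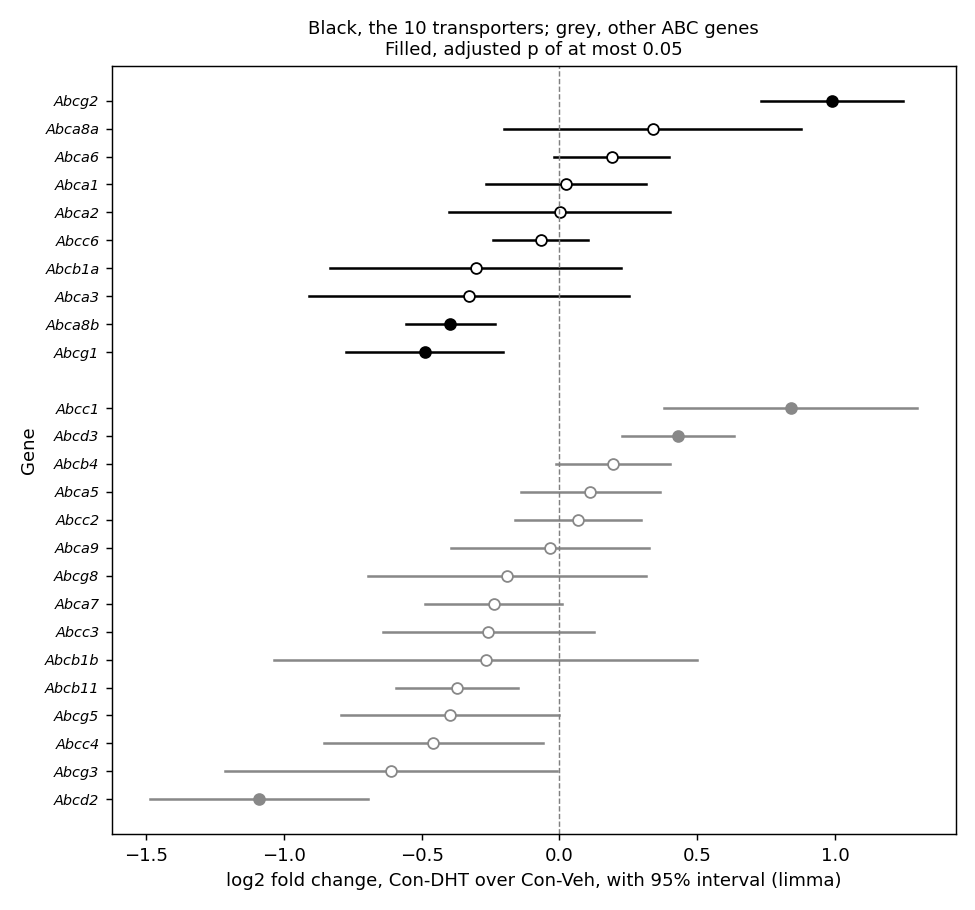
Log2 fold changes (Con-DHT over Con-Veh) with 95% intervals from limma for the 10 transporters (black) and for 15 other ABC genes named in the text (grey), filled where the adjusted p is at most 0.05. Abcg2 (0.99), Abcd2 (-1.09), Abcc1 (0.84), Abcd3 (0.43), Abca8b (-0.40) and Abcg1 (-0.49) are filled, and the intervals of most of the others include 0.

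Genes that work with these transporters were read from 4 lists. Over all genes tested, limma called 7.21%, and the median log2 fold change with spike-in scaling was 0.19. In the list of LXR and cholesterol efflux genes, 8 of 28 were called, 2 higher and 6 lower, with a median log2 fold change of -0.12 (0.08 with spike-in scaling). The lower genes included Cd5l, Npc2 (1259 ± 79.4 and 929 ± 74.3, adjusted p = 0.0095), whose product carries cholesterol out of lysosomes, the phospholipid transfer protein gene Pltp (550.3 ± 38.5 and 424 ± 32.2, adjusted p = 0.025) and the cholesterol esterifying enzyme gene Soat2 (810.3 ± 72.8 and 603 ± 67.4, adjusted p = 0.028), with Lcat and Lipc also lower. The higher genes were the sterol carrier gene Stard4 (370.4 ± 139 and 674 ± 107, adjusted p = 0.028) and the LXR target Arl4c (63.1 ± 6.78 and 93.9 ± 9.20, adjusted p = 0.034). The abundant apolipoprotein genes Apoe (log2 fold change -0.27, adjusted p = 0.64) and Apoa1 (0.05, adjusted p = 0.92) did not pass limma's test. The groups of Apoe did not overlap, and DESeq2 called it lower (adjusted p = 0.010), while edgeR (0.25) and limma without the trend (0.11) did not. Cd5l also belongs to the macrophage list. Without a single library, between 2 and 5 genes of the list were called, and with the Mup-free scaling 4 were called, 2 higher and 2 lower. With spike-in scaling Stard4 alone was called (adjusted p = 0.0064). The groups of Stard4 overlapped. Its call was lost without the trend (0.063), with the replicate block (0.062) and in 6 of 8 cases when a library was left out. The calls of Cd5l and Npc2 held whichever library was left out. Those of Pltp, Soat2, Arl4c, Lcat and Lipc held in 3, 2, 2, 1 and 1 of 8 cases. Without the trend the calls of Pltp (0.0505), Soat2 (0.062), Lcat (0.066) and Lipc (0.097) were lost, and edgeR did not call Lipc (0.053).

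In the list of drug and xenobiotic response genes, 3 of 16 were called and all 3 were lower in Con-DHT, with a median of -0.23 (-0.035 with spike-in scaling). The bilirubin glucuronidating enzyme gene Ugt1a1 fell from 3606 ± 83.7 to 2031 ± 216 (SD, n = 4; log2 fold change -0.83, SE 0.08; limma, adjusted p = 0.00044). Cyp3a11, which encodes a drug-oxidising P450, fell from 26664 ± 6850 to 13365 ± 3748 (adjusted p = 0.028), and Nfe2l2, the gene of the oxidative stress regulator NRF2, from 984 ± 68.1 to 745 ± 68.3 (adjusted p = 0.021). The call of Cyp3a11 was lost without the trend (0.057), with the replicate block (0.085) and in 4 of 8 cases when a library was left out. That of Nfe2l2 was lost without the trend (0.052), with the Mup-free scaling (0.059), with the replicate block (0.066) and in 2 of 8 such cases. With the Mup-free scaling 1 was called higher and 2 lower, and by DESeq2 1 higher and 5 lower. The higher gene was Tiparp, an aryl hydrocarbon receptor target named here after its values were seen (112 ± 30.5 and 181 ± 27.3; adjusted p = 0.054 by limma, 0.029 with the Mup-free scaling and 0.014 by DESeq2). The P450 reductase gene Por (0.01) and the receptor gene Nr1i3 (-0.11) did not pass. Between 1 (without Con-Veh replicate 3) and 5 (without Con-DHT replicate 2) genes were called when a library was left out. None of the 3 called genes was called with spike-in scaling (adjusted p from 0.17 to 0.93), which called Cyp2b10 lower (adjusted p = 0.00029, against 0.12 in the main test).

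In the list of mineralization and pyrophosphate genes, 2 of 12 were called, both lower, with a median of -0.24 (-0.037 with spike-in scaling). Nt5e, whose product CD73 makes adenosine from AMP downstream of Abcc6-dependent ATP release, fell from 578 ± 50.2 to 172 ± 39.1 (log2 fold change -1.77, SE 0.15; limma, adjusted p = 0.00023), and was called whichever of the 8 libraries was left out and with spike-in scaling. Vkorc1, of the vitamin K cycle, fell from 1663 ± 41.8 to 1411 ± 39.3 (adjusted p = 0.038) and lost its call whichever library was left out. The mineralization inhibitor gene Ahsg (-0.31, adjusted p = 0.32) and the adenosine transporter gene Slc29a1 (-0.37, adjusted p = 0.083) did not pass limma's test, and DESeq2 called both lower (adjusted p = 0.046 and 0.036).

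In the list of phospholipid and sphingolipid handling genes, 5 of 19 were called, 2 higher and 3 lower, with a median of 0.06 (0.26 with spike-in scaling). The phosphatidylcholine transfer protein gene Pctp (401 ± 54.4 and 580.3 ± 46.2, adjusted p = 0.015) and the choline phosphotransferase gene Chpt1 (2218 ± 248 and 3067 ± 399, adjusted p = 0.032) rose. The ceramide synthase gene Cers6 (466 ± 26.1 and 318 ± 65.6, adjusted p = 0.032), the phosphatidylethanolamine methyltransferase gene Pemt (3756 ± 186 and 3024 ± 290.3, adjusted p = 0.046) and the flippase gene Atp8b1 (623 ± 72.2 and 455 ± 63.5, adjusted p = 0.044) fell. Cers2 (-0.07) did not pass. With spike-in scaling none of the 5 was called by limma (adjusted p from 0.20 to 0.95; 2 genes of the list at an unadjusted p of at most 0.05), and with the Mup-free scaling the calls of Pemt (0.12) and Atp8b1 (0.087) were lost. Without a single library, between 1 and 3 genes were called. Pctp was called whichever library was left out, Cers6, Chpt1 and Atp8b1 in 2 of 8 cases each and Pemt in 1 of 8. The call of Pemt was also lost by edgeR (0.062), without the trend (0.094) and with the replicate block (0.10). Those of Cers6 (0.065), Chpt1 (0.073) and Atp8b1 (0.086) were lost without the trend, and that of Atp8b1 with the block (0.072).

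For each called transporter the 3 genes with the most similar log2 values over the 8 libraries were listed among the 10724 with a mean of at least 50, as a description with no test. All 8 points are shared between the genes, and a difference between the groups alone gives a high r. For Abcg2 they were Cyp4a12a (Pearson r = 0.997), Mup7 (0.993) and Ttc39c (0.992), with log2 fold changes of 7.45, 8.43 and 1.58. For Abcg1 they were the lysosomal protease gene Ctsc (0.986), Il18bp (0.980) and Dhrs7 (0.968), with log2 fold changes of -0.99, -0.72 and -0.89, and for Abca8b they included Rpl17 (0.975) and Tuba4a (0.970), with -0.40 and -0.33.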

How the data were processed

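Livers of 4 Con-Veh and 4 Con-DHT mice were sequenced, with 1 library per mouse. The authors trimmed reads (Trimmomatic), aligned them with STAR, used featureCounts to count exonic reads with a unique alignment, and divided the counts by DESeq2 size factors. The signal that the authors deposited is therefore a normalized count. The build in the submitters' processing notes is GRCm39, and coordinates given here are those of GRCm38 (GENCODE M21, RefSeq GRCm38.p6), matched by Ensembl identifier. Each value divided by the worth of a single read was whole within 0.01 reads for 100% of values, and these reads served edgeR 4.0.16 and DESeq2 1.42.0, which called 1024 and 1569 genes.

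Values were tested as log2(value + 1) with limma 3.58.1 (intensity trend, Benjamini-Hochberg over the 14312 genes whose mean reached 10), and fold changes are on that scale, which understates the change of low genes. Limma called 1032 genes, 658 higher and 374 lower. The script was tested on simulated data. Coding sequences were compared with blastn 2.17.0. Intervals of fold changes are 95% intervals from limma. The libraries had between 13123962 and 17815944 reads on mouse genes, and 54 spike-ins were set apart. The columns of the authors' table hold no comparison of their own. Libraries of a group differed by more than sampling noise (chi-square per degree of freedom from 19.5 to 62.9).

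The transporters and lists were chosen with earlier results of these data known. Named were all 10 transporters, the called and 14 selected other ABC genes, up to 6 called genes (here Lcat and Lipc are named besides) and the 2 most abundant uncalled genes of each pathway list, the called genes and the most abundant gene of each of 9 marker lists, and up to 3 similar genes per called transporter, and a few genes that this rule names are not reported here. Alternatives changed the pseudocount, filter, variance model, scaling, test, replicate block and libraries.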

Additional observations from a re-analysis of the deposited data

Results flagged for a closer look

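In 26 pairs of a gene (the 10 transporters and the 3 other called ABC genes) and a group of 4 libraries, the highest or lowest library was compared with its nearest neighbour, and 3 pairs stood out, where chance gives about 1 in 20. Abca2 in Con-DHT replicate 1 was at 1163 against 829 in the next library, a gap of 0.924 of the group's range. Abca6 in Con-DHT replicate 4 was at 2455 against 2895, a gap of 0.902 of the range. Abcd3 in Con-Veh replicate 1 was at 6012 against 6984 in the next library, a gap of 0.882 of the range.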

How the results depend on the processing

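Of the 10 transporters, 3 were called by limma and between 2 and 3 when a library was left out. Scaling by the spike-ins, whose share of reads ran from 1.68% to 3.61% of a Con-Veh library, left 1 (Abcg2) and left 1 whose groups did not overlap, a setting chosen after seeing the data for that last count. It shifted the median of all genes by 0.20 on the log2 scale, called 637 genes and made 88.2% of calls higher, against 63.8% in the main test and 83.9% with the Mup-free scaling. It called 0 of the other ABC genes and 0 of the phospholipid genes by limma (3 and 2 at an unadjusted p of at most 0.05), and 1 each of the LXR, drug and mineralization genes. All genes called were 648 with a mean of at least 50, 1569 by DESeq2 and between 638 and 897 when a library was left out, fewest without Con-Veh replicates 4 (638) and 2 (649) and Con-DHT replicates 1 (651) and 2 (653). The lists gave between 1 and 3 (other ABC), 2 and 5 (LXR), 1 and 5 (drug), 1 and 2 (mineralization) and 1 and 3 (phospholipid) calls when a library was left out.

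Without the intensity trend, LXR, drug, mineralization and phospholipid calls were 3, 1, 1 and 1, and with the Mup-free scaling LXR, mineralization and phospholipid calls were 4, 1 and 3. DESeq2 called 6 drug and 5 mineralization genes, edgeR 1 mineralization gene, and limma 3 phospholipid genes with a mean of at least 50. Same-numbered libraries did not deviate together (correlations from -0.19 to -0.0060), and the labels do not say what the number stands for. With the replicate block 700 genes, 2 transporters (not Abcg1), 1 other ABC gene and 2 LXR, 1 drug, 1 mineralization and 3 phospholipid genes were called. The log2 ratio of Abca8a over Abca8b differed by between 0.73 and 0.74 with the pseudocounts tried. The causes were not tested.

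Among the results tabulated, reversals were limited to genes that were not called. Abca2 turned to -0.0085 by edgeR and -0.014 by DESeq2. With the Mup-free and spike-in scalings Abcc6 turned to 0.030 and 0.13, and Abca9 to 0.063 and 0.16, and Abcg8 turned to 0.0091 with the spike-ins. When a library was left out, log2 fold changes ran from -0.058 to 0.12 for Abca1 (negative without Con-Veh replicate 1, Con-DHT replicate 1 or Con-DHT replicate 2), from -0.16 to 0.098 for Abca2 (negative without Con-Veh replicates 3 or 4 or Con-DHT replicate 1), and from -0.12 to 0.052 for Abca9 (positive without Con-Veh replicates 1 or 2 or Con-DHT replicate 3). They ran from -0.33 to 0.052 for Abcg8 (positive without Con-DHT replicate 4). With 4 libraries per group, the 95% intervals of Abca3 and Abca8a were wide and included no change.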
